A study of Mus musculus with 15 samples.

Results

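Keratins are the intermediate filament proteins of epithelia. A filament is built from pairs of 1 acidic type I and 1 basic type II chain, so the genes are used in sets: Krt8 with Krt18 or Krt19 in simple epithelia, Krt5 with Krt14 or Krt15 in the basal layer of stratified epithelia, Krt7 in ducts and glands, and Krt17 in activated or wounded epidermis and skin appendages. Chondrocytes, which secrete the collagen and proteoglycan matrix of cartilage, are mesenchymal cells whose main cytoplasmic filament is vimentin.

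The genes described are the type I keratins Krt14, Krt15, Krt17, Krt18 and Krt19 and the type II keratins Krt5, Krt7 and Krt8, which are 8 of 48 keratin genes and of 18193 named genes on the array. They were found by gene symbol and are measured by 13 probe sets. A further probe set is annotated to Krt17 and Krt14 together and was not used. The genes were selected on measured values of the LY294002 against DMSO comparison, in which Krt18 was among the larger decreases and epithelial markers had lower means, so that comparison is given here as a description and without a test.

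Total RNA came from primary chondrocytes of CD1 mouse embryos at E15.5, grown in monolayer from enzymatically digested limb cartilage. Of 15 arrays, 3 were of cultures given LY294002, an inhibitor of phosphatidylinositol 3-kinase, 3 of cultures given UO126, an inhibitor of the MEK kinases, 3 of cultures given SB202190 (written SB90 in the sample titles), an inhibitor of p38 kinases, 3 of cultures given Trichostatin A, an inhibitor of histone deacetylases, and 3 of cultures given the vehicle DMSO. The sample labels state an incubation of 24 h and the series text one of 2 h, so the time is uncertain. The study's methods describe the LY294002 and DMSO replicates as independent experiments. All values are log2 signals. A difference of 1 on that scale is a doubling of signal, and signals of different probe sets are not compared with each other, because probes differ in how well they bind. A probe set was tested where its mean in either group was at least the log2 of 50, or 5.644. The probe set that represents each keratin was above that level in every treatment, the lowest group mean being 5.72 for Krt17 in UO126. A difference was called where the adjusted p of limma, after Benjamini-Hochberg correction over all probe sets tested, was under 0.05.

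Chondrocyte markers were high in every culture. The mean over 14 of them, such as Col2a1 and Acan, lay between 12.04 and 12.08 in LY294002, between 11.96 and 12.17 in UO126, between 11.37 and 11.60 in SB202190, between 10.06 and 10.62 in Trichostatin A and between 11.72 and 11.82 in DMSO. The mean over 11 epithelial markers other than the 8 keratins lay between 6.90 and 6.94 in LY294002, 7.03 and 7.12 in UO126, 6.96 and 7.06 in SB202190, 7.66 and 7.73 in Trichostatin A, and 7.12 and 7.26 in DMSO. Of these epithelial markers Cdh1 was below the filter in all treatments, Esrp1 in all but Trichostatin A, and Dsp in LY294002 and UO126. Dsp averaged 9.15 in Trichostatin A and 6.16 in DMSO, Esrp1 6.45 and 4.96, and Cdh1 5.64 and 4.03. In Trichostatin A against DMSO, the 9 epithelial markers at or above the filter in DMSO, Dsp among them, had a median difference of -0.12. The part that a few epithelial cells in the cultures could have in the keratin signals was not tested. In RNA from whole cultures, fewer cells of a type and less RNA per cell cannot be told apart.

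The promoters of 3 of the genes are shown because the 3 responded differently. Krt18 and Krt8 encode partner chains and lie on chromosome 15 on opposite strands, with 2 non-coding and 0 protein-coding genes between them. Krt18 rose in Trichostatin A, Krt7, on the same chromosome, fell, and Krt8 showed no called difference on its brightest probe set. Each window runs 5′ to 3′ on the gene's strand from 250 bases before to 50 bases after the RefSeq start (GRCm38.p6), at chr15:102027966-102028265 on the + strand for Krt18, chr15:102004293-102004592 on the - strand for Krt8 and chr15:101412153-101412452 on the + strand for Krt7. RefSeq promoters were matched for 5 of the 8 genes, these and Krt5 and Krt14. Capitals mark matches to 4 motifs searched on both strands.
Krt18: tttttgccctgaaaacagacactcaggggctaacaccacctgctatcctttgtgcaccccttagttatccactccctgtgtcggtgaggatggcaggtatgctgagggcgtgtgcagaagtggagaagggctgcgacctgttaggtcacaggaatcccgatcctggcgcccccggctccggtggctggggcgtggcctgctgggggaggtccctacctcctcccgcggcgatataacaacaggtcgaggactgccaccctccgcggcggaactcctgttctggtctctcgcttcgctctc
Krt8: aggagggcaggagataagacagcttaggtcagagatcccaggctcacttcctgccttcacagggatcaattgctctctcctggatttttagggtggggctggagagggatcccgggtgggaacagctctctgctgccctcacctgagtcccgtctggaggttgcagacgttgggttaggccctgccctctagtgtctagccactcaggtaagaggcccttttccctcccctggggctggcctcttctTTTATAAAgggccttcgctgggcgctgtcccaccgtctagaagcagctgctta
Krt7: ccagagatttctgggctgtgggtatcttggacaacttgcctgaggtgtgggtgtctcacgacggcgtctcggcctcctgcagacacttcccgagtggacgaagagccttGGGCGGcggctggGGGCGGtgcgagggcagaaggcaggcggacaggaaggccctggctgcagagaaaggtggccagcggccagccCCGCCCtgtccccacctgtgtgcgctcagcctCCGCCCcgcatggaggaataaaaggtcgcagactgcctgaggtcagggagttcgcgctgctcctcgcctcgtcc
The Krt7 window holds 4 GC boxes (GGGCGG or CCGCCC), beginning at positions -141, -128, -56 and -24 from the start, and a GC box is found in 35.7% of 32851 mouse promoters of the same length. The Krt8 window holds a stretch with the letters of a TATA box (TATAAA or TTTATA, in 13.6% of promoters) on both strands, in 2 overlapping matches at -3 and -1. That stretch lies across the annotated start. Only exact letters were searched, at any position, so near matches in the windows are not marked. The Krt18 window holds no match to these or to the AP-1 motif TGANTCA (7.81% of promoters) or the ETS core CCGGAA or TTCCGG (14.9%), and has no capitals. The GC content of the windows was 61.3% for Krt18, 58.0% for Krt8 and 66.3% for Krt7, against a median of 52.7% over all promoters.

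Krt18, the type I partner of Krt8 in simple epithelia, had the widest range of group means of the 8 after Krt19, at 3.66. The lowest of its means was that of LY294002, whose difference from DMSO was used to choose the genes. Nothing is therefore read from the range or its rank. Its probe set 1448169_at read 7.38, 7.35 and 7.30 in the LY294002 arrays, 7.59, 7.32 and 7.33 in UO126, 8.60, 8.60 and 8.57 in SB202190, 11.17, 10.90 and 10.93 in Trichostatin A, and 8.98, 8.67 and 8.77 in DMSO. The LY294002 and UO126 arrays overlapped at the low end, the SB202190 arrays lay just under the DMSO arrays without overlap, and the Trichostatin A arrays lay above all others. In UO126 Krt18 fell by 1.39 against DMSO, 2.63-fold (SE 0.10, adjusted p = 3.45e-06). SB202190 differed from DMSO by -0.22 (SE 0.10, adjusted p = 0.396), a difference that was not called. In Trichostatin A Krt18 rose by 2.19, 4.57-fold (SE 0.10, adjusted p = 3.94e-11). Where neither LY294002 nor DMSO arrays enter the difference, Krt18 was lower in UO126 than in SB202190 by a log2 difference of -1.18 (adjusted p = 1.81e-06), and higher in Trichostatin A than in UO126 by 3.59 (adjusted p = 1.11e-13). The LY294002 mean was 7.34 ± 0.04 and the DMSO mean 8.81 ± 0.16 (SD, n = 3 each), a log2 difference of -1.47.

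**Figure D1:**
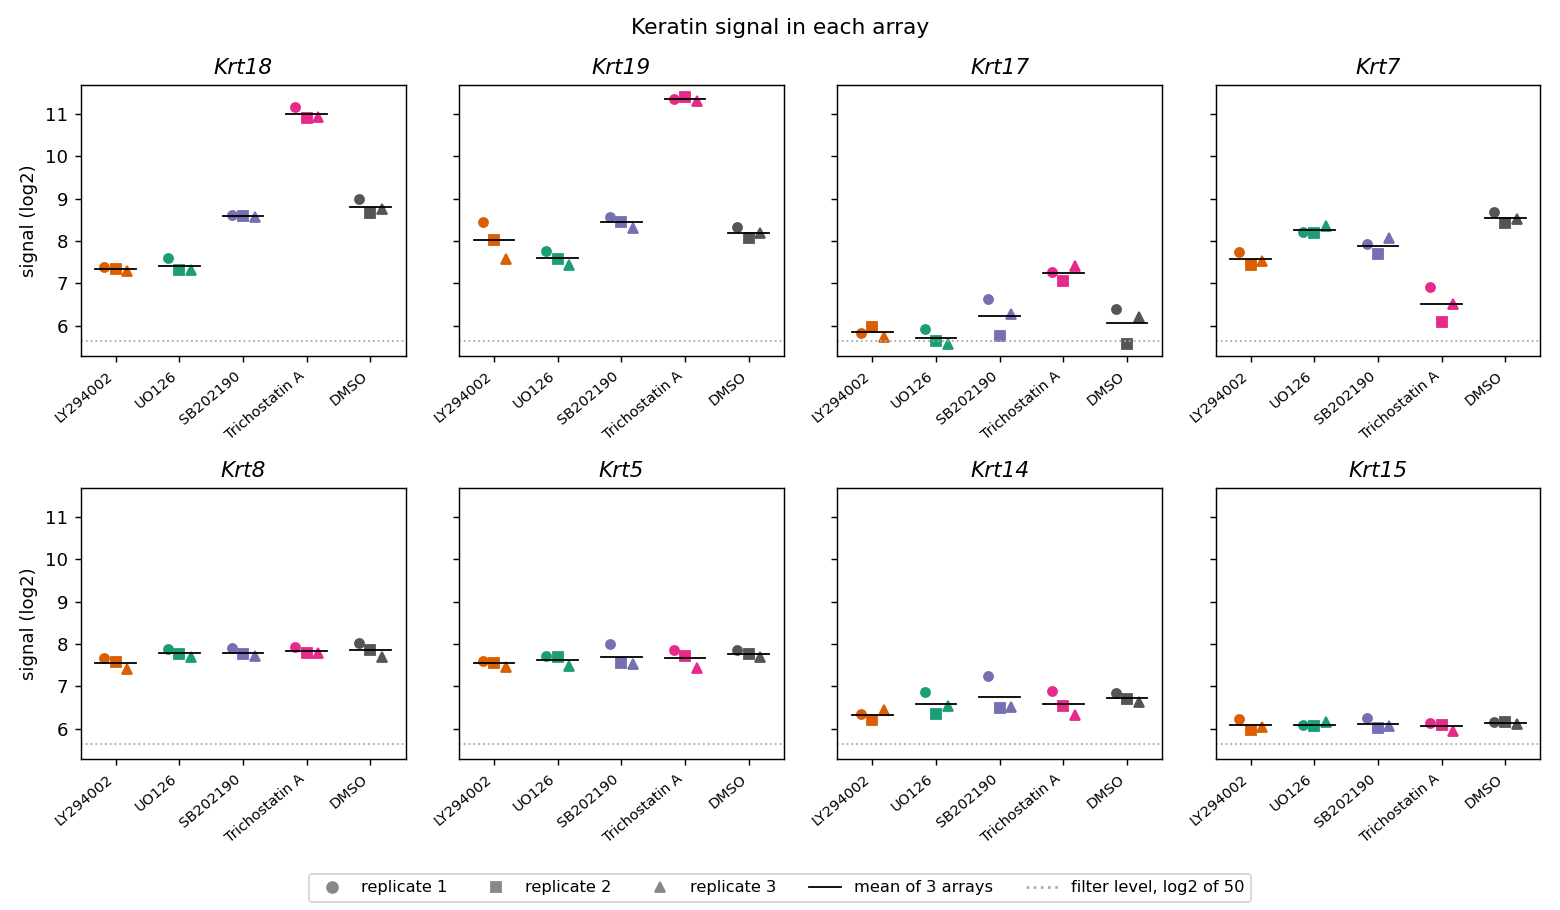
Log2 signal of the 8 keratins (1 probe set each) in each of 15 arrays, by treatment, with replicate numbers as symbols, group means of 3 arrays as bars and the filter level of 5.644 as a dotted line. Krt18, Krt19 and Krt17 are highest and Krt7 lowest in the Trichostatin A arrays, while Krt8, Krt5, Krt14 and Krt15 stay within narrow ranges.

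Krt19, a short type I keratin of simple and ductal epithelia, had the widest range of group means, 3.75, and responded chiefly to Trichostatin A. Its signals were 8.44, 8.03 and 7.58 in LY294002, 7.77, 7.59 and 7.43 in UO126, 8.57, 8.45 and 8.31 in SB202190, 11.34, 11.39 and 11.31 in Trichostatin A, and 8.34, 8.07 and 8.18 in DMSO. The Trichostatin A arrays stood apart with an SD of 0.04, whereas the LY294002 arrays spread across the UO126, DMSO and SB202190 values. Krt19 rose by 3.15 in Trichostatin A against DMSO, 8.87-fold (SE 0.16, adjusted p = 1.02e-10). In UO126 the difference from DMSO was -0.60 (SE 0.16), with all 3 UO126 arrays below all 3 DMSO arrays, and missed the threshold at an adjusted p of 0.0635. With the replicate number as a block it passed, at 0.00384 in a range of 0.00384 to 0.516 over the alternatives, and it passed as well without LY294002 replicate 1 (0.0119) or replicate 3 (0.0115). Against SB202190, Krt19 was lower in UO126 by a log2 difference of -0.85 (adjusted p = 0.00303), a call lost at 0.14 without replicate 2 of every treatment, in a range of 7.16e-05 to 0.14.

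Krt17, a type I keratin induced in injured epidermis, was near the filter except in Trichostatin A. Probe set 1423227_at read 5.84, 5.98 and 5.74 in LY294002, 5.92, 5.64 and 5.58 in UO126, 6.64, 5.77 and 6.27 in SB202190, 7.28, 7.05 and 7.41 in Trichostatin A, and 6.40, 5.57 and 6.22 in DMSO. Apart from Trichostatin A the groups overlapped, and replicate 2 was the low array in both SB202190 and DMSO. Krt17 rose by 1.18 in Trichostatin A against DMSO, 2.27-fold (SE 0.20, adjusted p = 0.000142). Its difference between UO126 and SB202190 was -0.52 (adjusted p = 0.215, and 0.0407 with the replicate block, in a range of 0.0407 to 0.835). The second Krt17 probe set, 1420193_at, stayed between 4.17 and 4.56 in all 15 arrays, was below the filter in every group and showed no such rise. The mean of both probe sets gave a Trichostatin A difference of 0.53, which was still called.

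Krt7, a type II keratin of ductal and glandular epithelia, ran against the other responders in Trichostatin A. It read 7.75, 7.44 and 7.54 in LY294002, 8.22, 8.20 and 8.35 in UO126, 7.93, 7.69 and 8.06 in SB202190, 6.92, 6.09 and 6.51 in Trichostatin A, and 8.69, 8.44 and 8.53 in DMSO. The DMSO arrays were above every array of the 4 inhibitors, and the Trichostatin A arrays were below every other array. Krt7 fell by 2.04 in Trichostatin A against DMSO, 4.12-fold (SE 0.16, adjusted p = 1.88e-08). In SB202190 it fell by 0.66 (SE 0.16, adjusted p = 0.0416), a call that was lost when any 1 of the SB202190 or DMSO arrays was left out, with adjusted p between 0.0596 and 0.197 in those fits. It was also lost without LY294002 replicate 2, any 1 UO126 array or Trichostatin A replicate 3, at 0.0501 to 0.0549, and over all alternatives adjusted p ran from 0.00207 to 0.275. In UO126 the difference from DMSO was -0.30 (adjusted p = 0.611), and between UO126 and SB202190 it was 0.36 (adjusted p = 0.280). The LY294002 and DMSO means were 7.58 ± 0.16 and 8.55 ± 0.13 (SD, n = 3 each), a log2 difference of -0.97.

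Krt8, the type II partner of Krt18 and Krt19, was nearly flat on its brightest probe set. Probe set 1420647_a_at read 7.68, 7.57 and 7.42 in LY294002, 7.88, 7.78 and 7.69 in UO126, 7.91, 7.77 and 7.73 in SB202190, 7.92, 7.79 and 7.78 in Trichostatin A, and 8.04, 7.87 and 7.69 in DMSO. All groups but LY294002 overlapped with DMSO. The Trichostatin A difference from DMSO was -0.03 with a 95% interval of -0.25 to 0.18 (adjusted p = 0.801), and UO126 differed by -0.09 with an interval of -0.30 to 0.13. The 2 further Krt8 probe sets, 1423691_x_at and 1435989_x_at, gave Trichostatin A differences from DMSO of 0.23 and 0.08, neither called. Against UO126 they were higher in Trichostatin A by 0.34 and 0.23 (adjusted p = 0.104 and 0.138), and both passed with the replicate number as a block (0.00105 and 0.0286). Against SB202190 the difference of 1423691_x_at was 0.28 (adjusted p = 0.188, and 0.00447 with the block). Their suffix marks probes that can bind related transcripts, and the keratins are a family of similar sequence.

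The basal keratins showed no called difference on the probe set that represents each. Krt5 read 7.61, 7.56 and 7.47 in LY294002, 7.73, 7.69 and 7.49 in UO126, 7.999, 7.54 and 7.53 in SB202190, 7.87, 7.73 and 7.43 in Trichostatin A, and 7.86, 7.76 and 7.70 in DMSO. Krt14, its type I partner, read 6.35, 6.20 and 6.45 in LY294002, 6.86, 6.34 and 6.54 in UO126, 7.24, 6.50 and 6.51 in SB202190, 6.89, 6.54 and 6.34 in Trichostatin A, and 6.84, 6.71 and 6.64 in DMSO. The highest array of Krt5 and of Krt14 was replicate 1 in all treatments but LY294002, where that held for Krt5 alone. Krt15, a keratin of basal cells and of hair follicle stem cells, lay between 5.95 and 6.25 in all 15 arrays. The Trichostatin A differences from DMSO were -0.10 for Krt5 (95% interval -0.37 to 0.17), -0.14 for Krt14 (-0.53 to 0.24) and -0.09 for Krt15 (-0.28 to 0.10). Group means of Krt14 (6.34 to 6.75) and Krt15 (6.06 to 6.15) lay below the array medians of 6.902 to 6.996. Differences of such dim signals may be understated, and whether the signals stand above background was not tested.

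The 3 probe sets of Krt14 differed in size and call. On 1423935_x_at replicate 1 exceeded the mean of replicates 2 and 3 by 0.44 in UO126, 1.05 in SB202190, 1.01 in Trichostatin A and 0.87 in DMSO, and differed from it by -0.11 in LY294002. On 1455573_at replicate 1 was not raised, and Trichostatin A was lower than DMSO by a log2 difference of -0.33 (SE 0.11, adjusted p = 0.0214) and lower than UO126 by -0.28 (adjusted p = 0.0465). The same probe set differed by -0.28 between Trichostatin A and SB202190 (adjusted p = 0.0509, and 0.0151 with the replicate block). Against DMSO all 3 probe sets had lower means in Trichostatin A, at -0.02 for 1423935_x_at, -0.33 for 1455573_at and -0.14 for 1460347_at, and 1455573_at alone was called.

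**Figure D2:**
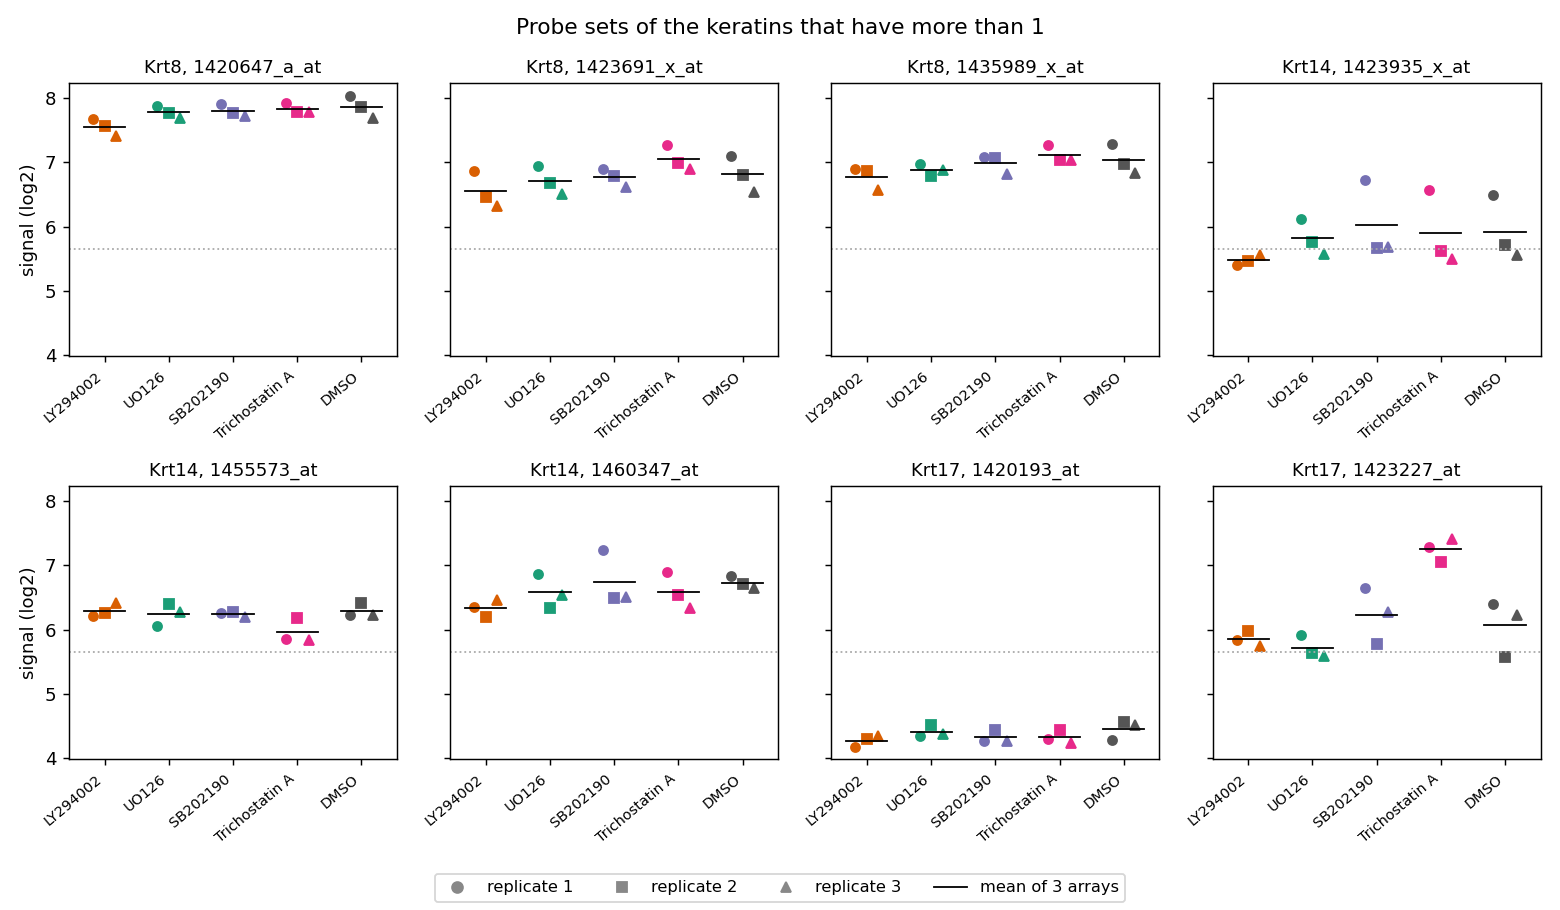
Log2 signal by treatment for each probe set of Krt8, Krt14 and Krt17, with replicate numbers as symbols, group means as bars and the filter level as a dotted line. The 2 probe sets of Krt17 differ in Trichostatin A, and replicate 1 stands out on the Krt14 probe set 1423935_x_at in every treatment but LY294002.

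With UO126 against DMSO, 1 of 8 keratins was called, Krt18, which was lower. Over all probe sets 1.14% were called higher and 0.792% lower, or 2.45% and 1.9% with the replicate block, under which Krt19 was called lower as well. The means of 8 of 8 keratins were lower in UO126, with a median difference of -0.22 against 0.0016 over all probe sets tested. The genes were chosen on a comparison with the same 3 DMSO arrays, in which all 8 means were lower as well. Nothing is therefore read from this count of directions. With SB202190 against DMSO 1 of 8 was called, Krt7, which was lower, where 1.23% of all probe sets were called higher and 0.706% lower (3.58% and 1.93% with the replicate block). With Trichostatin A against DMSO, 3 of 8 were called higher, Krt17, Krt18 and Krt19, and 1 of 8 lower, Krt7. Trichostatin A moved 23.0% of all probe sets higher and 20.6% lower, so the number of keratins called was close to that of the array as a whole. The sizes were less common, since 8.1% of all probe sets tested differed by 1 or more in either direction, as did these 4 keratins. These comparisons share their 3 DMSO arrays with each other and with the comparison on which the genes were chosen.

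**Figure D3:**
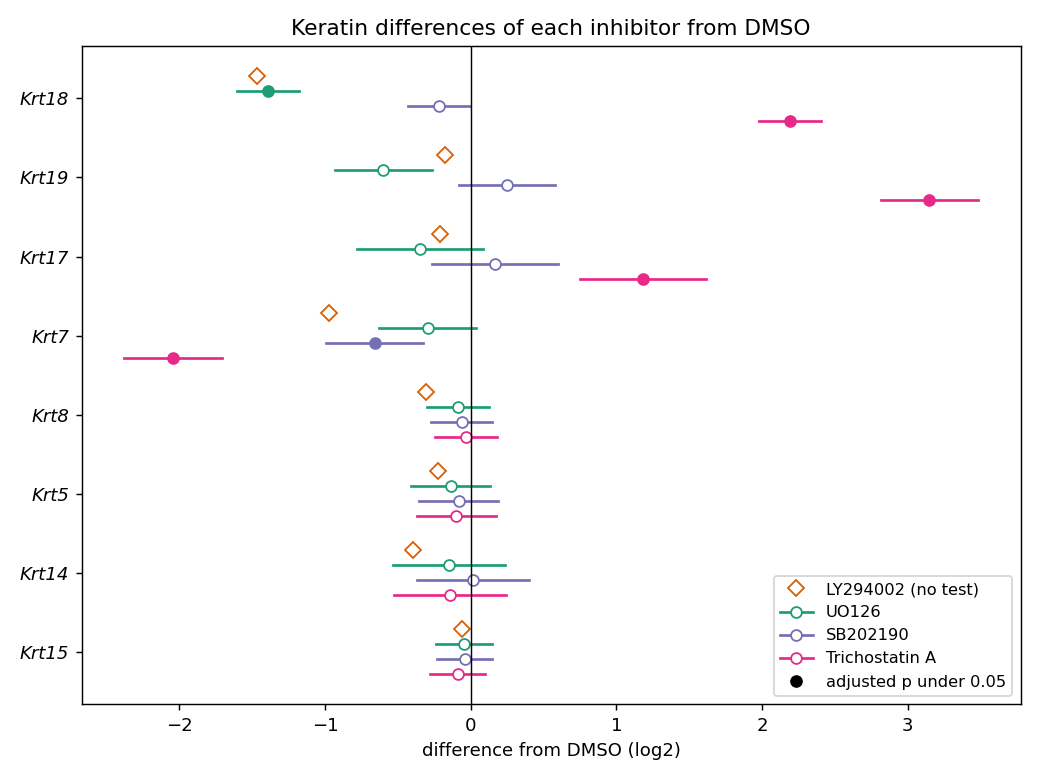
Log2 difference of each inhibitor from DMSO for the 8 keratins, with 95% intervals from limma for the tested inhibitors and filled circles where adjusted p was under 0.05. LY294002 is shown as diamonds with no test. Krt18 lies at -1.39 in UO126 and 2.19 in Trichostatin A, and Krt7 at -2.04 in Trichostatin A.

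Between inhibitors, UO126 and SB202190 differed in 2 of 8 keratins, Krt18 and Krt19, both lower in UO126, where 2.68% of all probe sets were called higher and 2.53% lower (4.12% and 5.05% with the replicate block, under which Krt17 was also called). Trichostatin A against UO126 gave Krt17, Krt18 and Krt19 as higher and Krt7 as lower, with 22.5% of all probe sets called higher and 20.1% lower. Trichostatin A against SB202190 gave the same 4 genes in the same directions, with 21.0% and 17.3% called over the array. The log2 differences from UO126 were 3.75 for Krt19, 3.59 for Krt18, 1.53 for Krt17 and -1.75 for Krt7, and those from SB202190 were 2.90, 2.41, 1.02 and -1.38 for the same genes. In LY294002 all 8 means were lower than in DMSO, with a median difference of -0.27. On the array as a whole 6.83% of probe sets were called higher and 1.78% lower in that comparison (13.3% and 5.1% with the replicate block), and nothing is read from this because the genes were chosen on it. Calls in LY294002 were higher in 79.3% of cases, in 62.1% after quantile normalization and in 89.2% after centring arrays on their medians.

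Most other keratins moved little. Of 36 others with a plainly numbered symbol, 30 reached the filter in some treatment, and the range of group means had a median of 0.19 and reached 0.66 for Krt80, a type II keratin of differentiating epithelia. Of 30 tested, 0 were called in UO126 or SB202190 against DMSO by limma, with 3 under an unadjusted p of 0.05 in each, and 1 was lower in SB202190 with the replicate block. UO126 called 1.14% of all probe sets higher and 0.792% lower. SB202190 called 1.23% and 0.706% (3.58% and 1.93% with the block), so these counts are near the shares of the array. In Trichostatin A 6 of 30 were lower and 0 higher, where 20.6% of all probe sets were lower and 23.0% higher. Krt80 fell by 0.55 (adjusted p = 0.000822), Krt75, of the hair follicle companion layer, by 0.55 (adjusted p = 0.00923), Krt16, the wound-induced partner of Krt6, by 0.43 (adjusted p = 0.0320) and Krt71, of the hair inner root sheath, by 0.35 (adjusted p = 0.00219). Of the 4 keratins with a lettered symbol, Krt6a, the wound-induced type II partner of Krt16, had the widest range of group means, 0.80, and fell by 0.66 in Trichostatin A (adjusted p = 0.000425). Krt33b, a hair keratin, fell by 0.22 (adjusted p = 0.0313), while Krt6b and Krt33a differed by 0.02 and 0.06 and were not called. In UO126 and SB202190 against DMSO limma called none of the 4, the lowest adjusted p being 0.581, for Krt6a in SB202190, and 0 had an unadjusted p under 0.05.

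Genes whose products anchor keratins at the cell surface were mostly higher in Trichostatin A. This list and the other lists of genes that work with keratins were chosen with earlier results of these data known. Their counts therefore describe the lists and give no independent support. Counts of genes that work with keratins are given here over genes at or above the filter in DMSO, since a gene tested only through a high Trichostatin A signal had to differ. Among all probe sets at or above the filter in DMSO, Trichostatin A called 22.1% higher and 20.9% lower. Of 16 desmosome and hemidesmosome genes tested, 10 rose and 1 fell against DMSO, with a median difference of 0.65 against -0.07 over those probe sets. The lists take the brightest probe set of each gene, whereas shares over the array count every probe set, so the units differ. Dsp, desmoplakin, which links keratin to the desmosome, averaged 9.15 in Trichostatin A and 6.16 in DMSO, a rise of 2.99 (SE 0.15, adjusted p = 1.33e-10). Pkp2, a desmosomal plakophilin, rose by 2.15, Lamb3, a chain of the basement membrane laminin that hemidesmosomes bind, rose 2.83-fold, and Itga6, the integrin chain of hemidesmosomes, rose by 1.38. In UO126, 2 of the 16 fell (3 with the replicate block) and 0 rose: Itga6 by 0.80 (adjusted p = 0.00804) and Perp, a desmosome-associated membrane protein, by 0.40 (adjusted p = 0.00422). UO126 called 1.14% of all probe sets higher and 0.792% lower, or 2.45% and 1.9% with the replicate block. In SB202190 1 of 16 fell, Lamb3, by 0.40 (adjusted p = 0.0143), and the block on replicate number gave 2 rises and 3 falls. SB202190 called 1.23% of all probe sets higher and 0.706% lower, or 3.58% and 1.93% with the block.

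Of 15 epithelial junction genes, 7 rose and 0 fell in Trichostatin A, with a median difference of 0.22, against the 22.1% and 20.9% of the array. They included F11r, the junctional adhesion molecule A, at 2.37, Cldn6, a claudin, at 1.70 and Lsr, a receptor of tricellular junctions, at 1.19. Pard6b, a polarity adaptor, averaged 7.10 in Trichostatin A and 5.18, below the filter, in DMSO. Of 15 tested in UO126 and in SB202190, limma called 0 in either, with or without the replicate block, and an unadjusted p under 0.05 was found for 0 in UO126 and 1 in SB202190. UO126 called 1.14% of all probe sets higher and 0.792% lower (2.45% and 1.9% with the block). SB202190 called 1.23% and 0.706% (3.58% and 1.93% with the block), so a count of 0 is near these shares. The group of epithelial transcription and splicing regulators had 7 of 12 higher and 1 lower in Trichostatin A, among them Klf5, a zinc finger factor of epithelia, at 1.04. A further 4 were below the filter in DMSO, as in Esrp1, an epithelial splicing factor, which averaged 6.45 in Trichostatin A and 4.96 in DMSO. Klf5 fell by 0.50 in UO126 (adjusted p = 0.0247). Trp63, the p63 factor of basal cells, averaged 6.29 in SB202190 and 7.37 in DMSO and fell by 1.07 (adjusted p = 0.00337). Trp63 was also the 1 regulator called lower in Trichostatin A against DMSO, at -0.55 (adjusted p = 0.0143).

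Of 13 genes of epidermal differentiation, 4 rose and 1 fell in Trichostatin A, with a median difference of -0.03, so that the share that rose was near the 22.1% of the array and the share that fell was below its 20.9%. Sbsn, suprabasin, which is made by suprabasal keratinocytes, averaged 8.74 in UO126, 9.39 in SB202190, 11.97 in Trichostatin A and 9.99 in DMSO. It rose by 1.99 in Trichostatin A (adjusted p = 7.91e-10) and fell by 1.24 in UO126 (adjusted p = 1.92e-05), the 1 call there (2 with the replicate block), and by 0.60 in SB202190 (adjusted p = 0.0140). UO126 called 0.792% of all probe sets lower (1.9% with the replicate block) and SB202190 0.706%. Dmkn, dermokine, and Krtdap, both secreted by keratinocytes, rose by 1.79 and 1.04 in Trichostatin A, and Calml3, a calmodulin-like protein of epithelia, fell by 0.78.

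**Figure D4:**
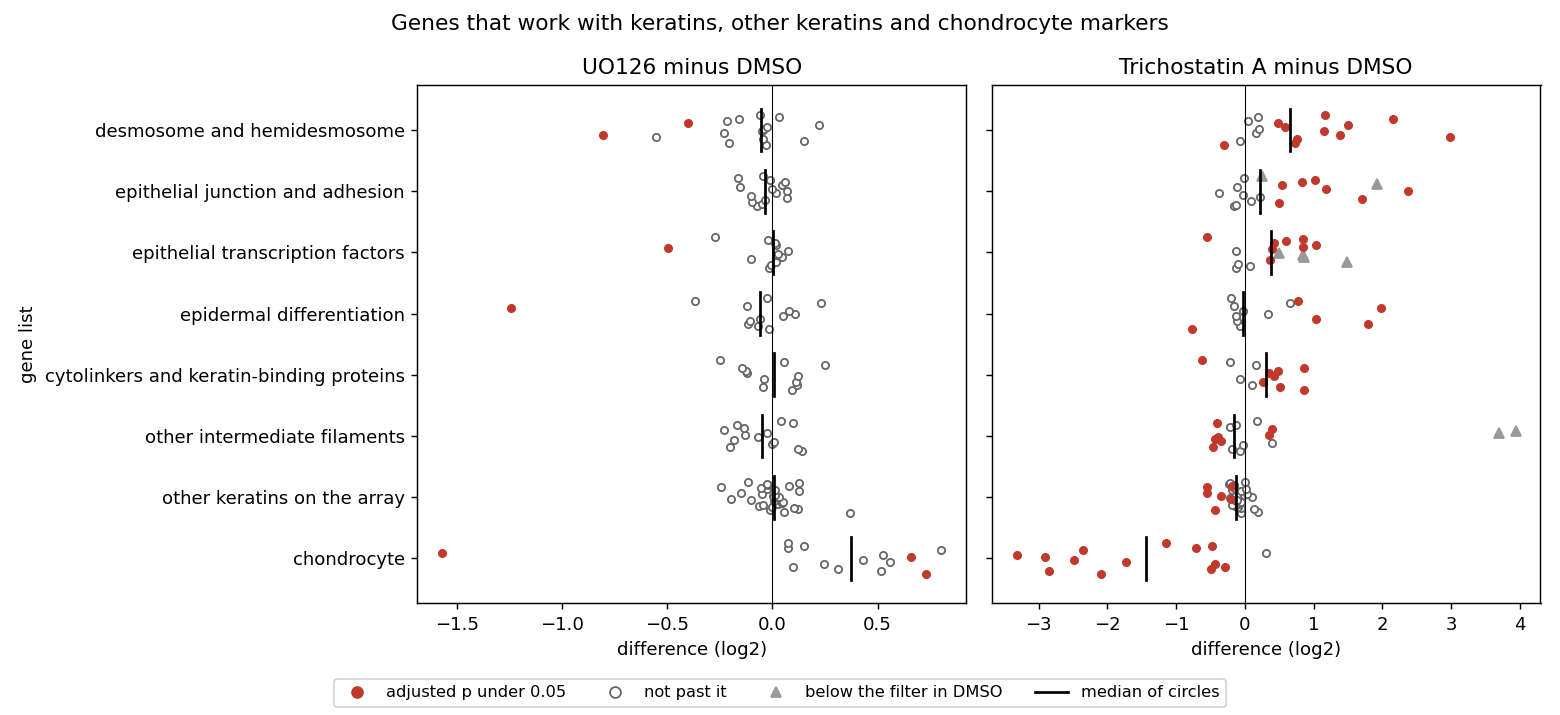
Log2 difference from DMSO in UO126 (left) and Trichostatin A (right) for each tested gene of 8 lists, filled where adjusted p was under 0.05, with triangles for genes below the filter in DMSO and the median of the circles as a bar. Horizontal scales differ between panels. In Trichostatin A 10 of 16 desmosome and hemidesmosome genes are higher and 13 of 14 chondrocyte markers lower, and other keratins (plainly numbered symbols) are called only on the lower side.

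Several marker lists moved with Trichostatin A as well. Trichostatin A called 22.1% of all probe sets at or above the filter in DMSO higher and 20.9% lower. Against DMSO 13 of 14 chondrocyte markers fell and 0 rose, with a median difference of -1.44, as in Matn3, a cartilage matrilin, which fell by 3.32, and Cnmd, chondromodulin, which fell by 2.85. Of 9 epithelial markers at or above the filter in DMSO, the keratins left out, 2 were higher and 1 lower. Of the skeletal muscle markers 5 of 6 tested were lower, of the fibroblast and perichondrium markers 5 of 7 were lower and 1 higher, and of the macrophage markers 3 of 5 were lower and 1 higher. Of the mesothelial markers, which share keratins with simple epithelia, 2 of 5 tested were higher, with list means between 6.36 and 6.49 in Trichostatin A and between 6.25 and 6.35 in DMSO. In the periderm and epidermal list 1 of 8 was higher and 1 lower, and of 2 endothelial markers tested 1 was higher. With so few genes, the epithelial, mesothelial, periderm and endothelial counts cannot be told from the shares over all probe sets. In UO126 the chondrocyte markers had a median difference of 0.37, with 2 of 14 higher, Acan and Matn1, and 1 lower, Prg4, the lubricin of articular cartilage (6 higher and 1 lower with the replicate block). Over all probe sets UO126 called 1.14% higher and 0.792% lower, or 2.45% and 1.9% with the replicate block. In SB202190, 1 of 14 was lower, again Prg4 (4 with the replicate block). Over all probe sets SB202190 called 1.23% higher and 0.706% lower, or 3.58% and 1.93% with the replicate block. The part of these marker shifts in the keratin differences was not tested.

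**Figure D5:**
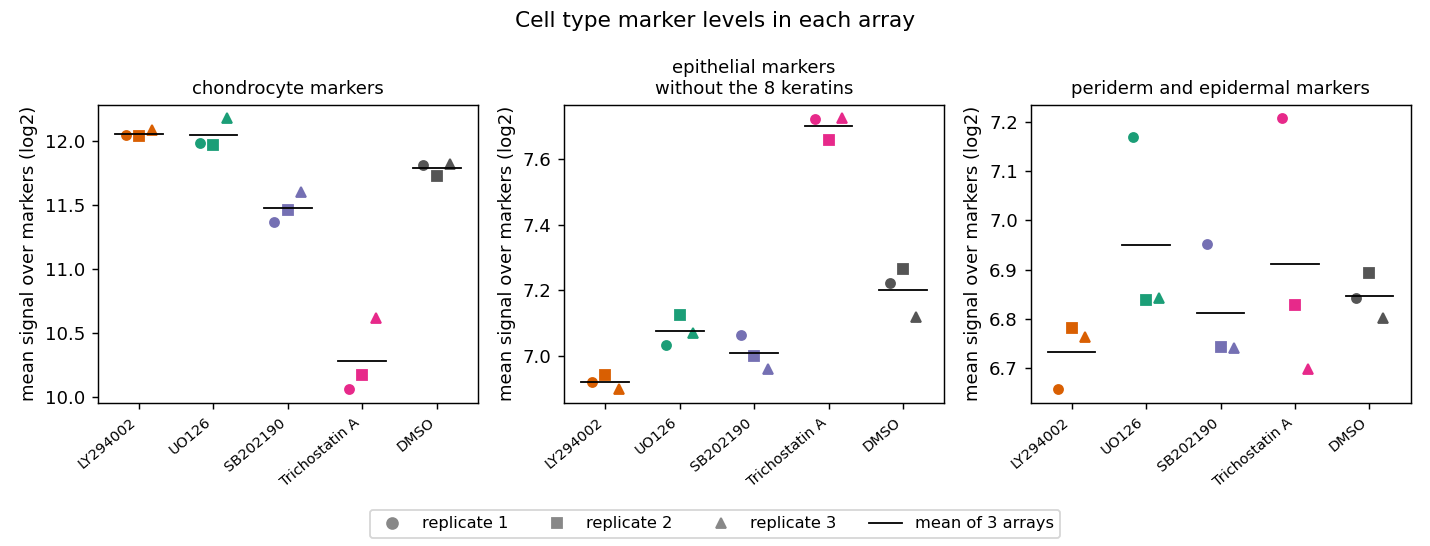
Mean log2 signal over 14 chondrocyte markers, 11 epithelial markers without the 8 keratins, and 8 periderm and epidermal markers in each array, by treatment, with group means as bars. Vertical scales differ between panels. Chondrocyte means are lowest and epithelial means highest in Trichostatin A. There the 9 epithelial markers at or above the filter in DMSO had a median difference from DMSO of -0.12.

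Across the 15 arrays, Krt18 and Krt19 varied together (Pearson r = 0.94), as did Krt17 with each of them (0.90 and 0.91). Without the Trichostatin A arrays these values were 0.68 for Krt18 with Krt19, and 0.58 and 0.66 for Krt17 with Krt18 and with Krt19. Krt7 ran against Krt19 (r = -0.84), but over the 12 arrays without Trichostatin A the value was -0.07. The same values were -0.65 and 0.49 for Krt7 with Krt18, and -0.69 and 0.14 for Krt7 with Krt17. Krt8 followed Krt18 less closely (r = 0.47), and Krt5 followed Krt14 (r = 0.82). Arrays of one treatment and of one replicate number are not independent points, so these values describe the arrays only. The arrays other than Trichostatin A include those of LY294002 and DMSO, on which the genes were chosen.

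Among 7537 genes compared with it, those whose signals were most like Krt18 over the 15 arrays were Col18a1, a basement membrane collagen, Met, the receptor of hepatocyte growth factor, Itga6, Akr1b8, an aldo-keto reductase, Ripk3, a kinase of necroptosis, Fgfbp1, a carrier of fibroblast growth factors, Slc27a1, a fatty acid transporter, and Serpinb1a, a protease inhibitor, with r between 0.97 and 0.98. Without the Trichostatin A arrays r lay between 0.84 and 0.91. The remaining arrays include those of LY294002 and DMSO, on which the genes were chosen, so these values are no independent check. Met averaged 8.24 in LY294002, 7.91 in UO126, 8.93 in SB202190, 10.57 in Trichostatin A and 8.94 in DMSO. After treatment means were removed, r was 0.64 for Met and 0.67 for Itga6, but -0.12 for Col18a1 and -0.54 for Slc27a1. The genes most like Krt19 were Ptges, a prostaglandin E synthase, Sat1, an enzyme of polyamine breakdown, and Sdhaf3, an assembly factor of succinate dehydrogenase, each at r = 0.99. Those most like Krt7 were Tmem238, Gnl3, a nucleolar protein, and Pidd1, a p53-induced adaptor, at r between 0.95 and 0.97.

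Krt17 was most like Gsto1, a glutathione transferase, Shb, an adaptor protein, and Acsl4, an acyl-CoA synthetase, at r = 0.95 for each. Krt14 was most like Asprv1, a protease of the cornifying epidermis (r = 0.88, and 0.93 after treatment means were removed), Cnfn, cornifelin, and Saa3, an acute phase protein. Krt5 was most like Krt14, Cnfn and Sfn, the stratifin 14-3-3 protein of keratinocytes, at r between 0.78 and 0.82. Krt8 was most like AU020206, Crabp1, a retinoic acid binding protein, and Aldh1l1, a folate enzyme, at r between 0.81 and 0.86, and Krt15 most like Pfn3, Rrp7a and Sfn, at r between 0.67 and 0.74.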

How the data were processed

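Total RNA of 15 cultures was hybridised to Affymetrix whole-genome mouse expression arrays. The authors deposited 1 table of log2 signals per probe set, with 45101 probe sets. Their methods name GC-RMA for this series and RMA for gene set analysis, and which made the table is not settled. No genome build is given for the array values, and the promoter windows are on GRCm38.p6. Either method shrinks low signals, so differences of dim probe sets may be understated, and with 3 arrays per group their number limits the precision. Array medians lay between 6.902 and 6.996. The 64 array controls were left out, and 45037 probe sets kept. By platform annotation, updated through RefSeq gene IDs (0 symbols changed), 34945 had 1 symbol, 932 several and 9160 none.

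Each gene is represented by the brightest of its own probe sets, taken as the mean of 15 arrays. Shares over the array count every probe set past the filter, so their unit is not the gene. A linear model with 1 term per treatment was fitted to all 15 arrays (limma 3.58.1, R 4.3.3), with p-values two-sided and adjusted by Benjamini-Hochberg over probe sets past the filter. The fit was tested on simulated data. An exact permutation test of 3 against 3 arrays cannot go below p = 0.1, so none is given. Genes were named by a rule: all 8 keratins, up to 4 called genes with the largest difference per list and comparison, and the 3 genes (8 for Krt18) with the highest Pearson r. The members and all gene lists were chosen with earlier results of these data known. Same-numbered arrays deviated together from their group means in LY294002, UO126 and SB202190 against DMSO (r between 0.24 and 0.77 for each number) and between inhibitors (0.23 to 0.46), so the replicate number was also fitted as a block and is given where it changes a keratin's call or moves a count by over 1.5 times. For Trichostatin A against DMSO the lowest r was 0.03, and the arrays share only a number. Alternatives changed the filter, normalization, prior, probe set rule and arrays used.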

Additional observations from a re-analysis of the deposited data

How the results depend on the processing

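Of 1320 refits of a single keratin in the 6 tested comparisons, 1254 kept direction and side of the threshold, 16 lost a call, 6 gained one and 44 turned sign. The turned values belong to 18 small differences that were not called before or after, with a lowest adjusted p of 0.432. When arrays were left out, the log2 difference ran from -0.23 to 0.14 for Krt14, -0.11 to 0.019 for Krt15, -0.078 to 0.40 for Krt17 and -0.15 to 0.023 for Krt8 in SB202190 against DMSO. It ran from -0.31 to 0.087 for Krt14, -0.11 to 0.021 for Krt15, -0.12 to 0.14 for Krt5 and -0.019 to 0.082 for Krt8 in Trichostatin A against SB202190. It ran from -0.14 to 0.15 for Krt14, -0.10 to 0.041 for Krt15 and -0.059 to 0.16 for Krt5 in Trichostatin A against UO126. It ran from -0.31 to 0.077 for Krt14, -0.060 to 0.076 for Krt15, -0.16 to 0.10 for Krt5 and -0.070 to 0.031 for Krt8 in UO126 against SB202190. It ran from -0.19 to 0.025 for Krt5 and -0.12 to 0.052 for Krt8 in Trichostatin A against DMSO. It ran from -0.17 to 0.00081 for Krt8 in UO126 against DMSO. Krt8 in Trichostatin A against DMSO was 0.0032 after centring on array medians and 0.093 with its probe sets averaged, and Krt14 in Trichostatin A against UO126 was -0.063 with its probe sets averaged. In the untested LY294002 comparison 4 refits, of Krt15 and Krt19, turned sign. The 3 Trichostatin A comparisons gave 4 called keratins under all 27 alternatives. For UO126 against DMSO the count was 2, not 1, with the replicate block, with quantile normalization and with a gene's probe sets averaged, and between 1 and 2 when arrays were left out. For SB202190 against DMSO it was 0, not 1, after centring on array medians, and between 0 and 1 when arrays were left out. For UO126 against SB202190 it was 3, not 2, with the replicate block, and between 1 and 2 when arrays were left out. The added calls were Krt19 in UO126 and Krt17 between UO126 and SB202190, the lost calls Krt7 in SB202190 and Krt19 between UO126 and SB202190. With the replicate block the Krt8 probe set 1423691_x_at was called in Trichostatin A against DMSO (0.23, adjusted p of limma 0.0153, against 0.259). The untested LY294002 difference of Krt17 was -0.52 without replicate 2 of every treatment, against -0.21. The cause was not tested. Over all probe sets the replicate block raised the number called to 6370, against 2978, in LY294002, to 1507, against 667, in UO126, to 1905, against 669, in SB202190, and to 3163, against 1800, between UO126 and SB202190. Krt17 and Krt15 lie near the filter, where small differences are hardest to measure, and no alternative starts from the scanner files, which were not used here.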

Other observations

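Of 14 other intermediate filament genes at or above the filter in DMSO, 2 were called higher and 5 lower in Trichostatin A, where 22.1% and 20.9% of such probe sets were. Nefm and Nefl, the medium and light neurofilament chains of neurons, averaged 8.56 and 8.94 in Trichostatin A against 4.62 and 5.25 in DMSO, where both were below the filter. Des, desmin, the filament of muscle, fell by 0.46 and Lmnb1, a nuclear lamin, by 0.43. In UO126 and SB202190, limma called 0 of 14 against DMSO, with or without the replicate block, and 1 in each had an unadjusted p under 0.05. UO126 called 1.14% of all probe sets higher and 0.792% lower (2.45% and 1.9% with the block). SB202190 called 1.23% and 0.706% (3.58% and 1.93% with the block), so a count of 0 is near these shares.

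Genes for proteins that link keratins to other cell structures or bind them mostly had higher signals in Trichostatin A. Among them 7 of 12 were called higher and 1 lower, against 22.1% and 20.9% of probe sets. Dnajb6, a chaperone that binds Krt18, rose by 0.86, Stk24, a kinase, by 0.86 and Dst, dystonin, a linker of keratin to hemidesmosomes, by 0.51. Ywhaz, a 14-3-3 protein, fell by 0.62. In UO126 and SB202190 limma called 0 of 12 against DMSO in both, also with the replicate block, and 1 in UO126 and 0 in SB202190 had an unadjusted p under 0.05. UO126 called 1.14% of all probe sets higher and 0.792% lower (2.45% and 1.9% with the block). SB202190 called 1.23% and 0.706% (3.58% and 1.93% with the block), so a count of 0 is near these shares.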
